A study of Homo sapiens with 3 samples.

Results

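The comparison set MDA-MB-231 cells carrying KAP1 with alanine in place of the serine Ser473 (S473A) against the same line carrying wild-type KAP1 (wt), across every gene of the deposited expression table that averaged 1 RPKM or more in the pair of libraries. RPKM is the number of reads scaled to the length of the gene model in kilobases and to library depth. Of 19049 usable gene entries 11788 met that minimum, 11611 of them here called longer genes and 177 with a short RNA symbol, mostly of small nucleolar RNAs and microRNAs, while 7261 fell under it. The minimum divided 151 genes with a mean from 0.9 to 1 RPKM from 159 with a mean from 1 to 1.1. MDA-MB-231 is a human cell line derived from a breast carcinoma, of basal-like and mesenchymal character. All cells of the study were grown without a listed treatment, their own KAP1 was depleted with a short hairpin RNA, and KAP1 was put back as wt, as S473A, or as S473D, in which aspartate takes the place of the same serine. Each form gave 1 library, so the comparison rests on 2 of the 3 libraries of the series. A hairpin can leave part of the cell's own KAP1 in place, and the labels do not state whether each line was a clone or a pool. There is no replicate error, no p-value is given, and a difference between the libraries cannot be told apart from a difference between single cultures.

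KAP1, encoded by TRIM28, is a corepressor without a DNA-binding domain of its own. KRAB zinc finger proteins bring it to chromatin, where it gathers the histone methyltransferase SETDB1, HP1 proteins and the NuRD complex and keeps genes and transposable elements silent. Ser473 lies beside the HP1-binding motif and is a target of checkpoint kinases, and an alanine there cannot take up the phosphate. The question was which transcripts stand at another level when KAP1 cannot be phosphorylated at this residue.

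The codon that the substitution replaces is shown first, because it is the designed difference between the 2 lines that the labels name. In the reference coding sequence of TRIM28 (GENCODE 29, GRCh38, plus strand) the codon of Ser473 lies in exon 12 of 17 at chr19:58548995-58548997. The run below gives it in capitals with 30 coding bases on each side, a stretch that begins in exon 11 and spans an intron, at chr19:58548888-58549027. It is reference sequence, and the codons of the re-expressed constructs may differ.
TRIM28 codon of Ser473: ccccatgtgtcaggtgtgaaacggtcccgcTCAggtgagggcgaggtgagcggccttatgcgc

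The cells held the basal markers of their line and some luminal ones, and the targeted gene was slightly higher in S473A. All 10 basal and mesenchymal markers were high, from EGFR at 59.6 RPKM in wt against 62.6 in S473A to vimentin (VIM) at 738 and 740, with differences between -0.08 and 0.07 on the log2(RPKM + 1) scale. Of 10 luminal markers ESR1, PGR, CDH1, EPCAM and ESRP1 were under 0.25 RPKM in both libraries. The other 5 were present: XBP1 at 37.7 RPKM in wt against 34.9 in S473A, KRT19 at 11.1 and 9.45, ERBB2 at 7.94 and 7.5, GATA3 at 1.72 and 1.83, and FOXA1, the only 1 of these 10 past 1.2-fold, at 1.41 and 1.96 (0.29). Of the leukocyte markers PTPRC was at 0.0264 RPKM in wt and listed at 0 in S473A, and CD14, LYZ and CSF1R were under 0.25, while CD68, which lysosomes of many cells hold, was at 50.1 and 51.6. The fibroblast gene COL1A2 was listed at 0 in both libraries and COL1A1 stood at 1.63 and 1.66 RPKM. TRIM28 was at 28.7 RPKM in wt against 32.3 in S473A, 1.12-fold higher in S473A (interval 1.06 to 1.19), and at 25.6 in S473D. These values pool the cell's own and the reintroduced transcript and do not read the substituted codon. The TRIM28 level thus differed along with the substitution, and the effects of the 2 cannot be told apart here. The estimated depth, rounded, was 25700000 reads in the wt library, 29400000 in S473A and 23900000 in S473D. Intervals beside ratios are exact 95% intervals computed from reads per gene at those depths, and they cover counting error only.

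Across all genes the S473A library lay close to wt. The median difference was -0.00049 on the log2(RPKM + 1) scale, S473A minus wt, and 86.7% of genes lay within 1.1-fold. At least 2-fold apart were 17 genes (0.144% of those compared), 9 higher and 8 lower in S473A. Of these, 15 had short RNA symbols, and the other 2 were the readthrough transcript TGIF2-C20orf24 (1.33 RPKM in wt against 3.72 in S473A) and MTRNR2L9 (2.35 and 0.199), whose sequence resembles mitochondrial ribosomal RNA. A smaller limit of 1.2-fold was passed upward by 186 genes (1.58%) and downward by 194 (1.65%). It was passed by 60.5% of short RNA symbols, 54 upward and 53 downward, a class that includes 8 microRNA host genes, long transcripts of which 0 passed it, and by 2.35% of longer genes, 132 upward and 141 downward. Of those 273 longer genes 235 had a counting interval that excluded 1, as did 1814 of all 11788 genes. The 273 were chosen by the same 2 values that give the interval, so the first count lends them no support. In bulk RNA a lower level cannot be told apart from fewer cells that make the transcript.

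**Figure D1:**
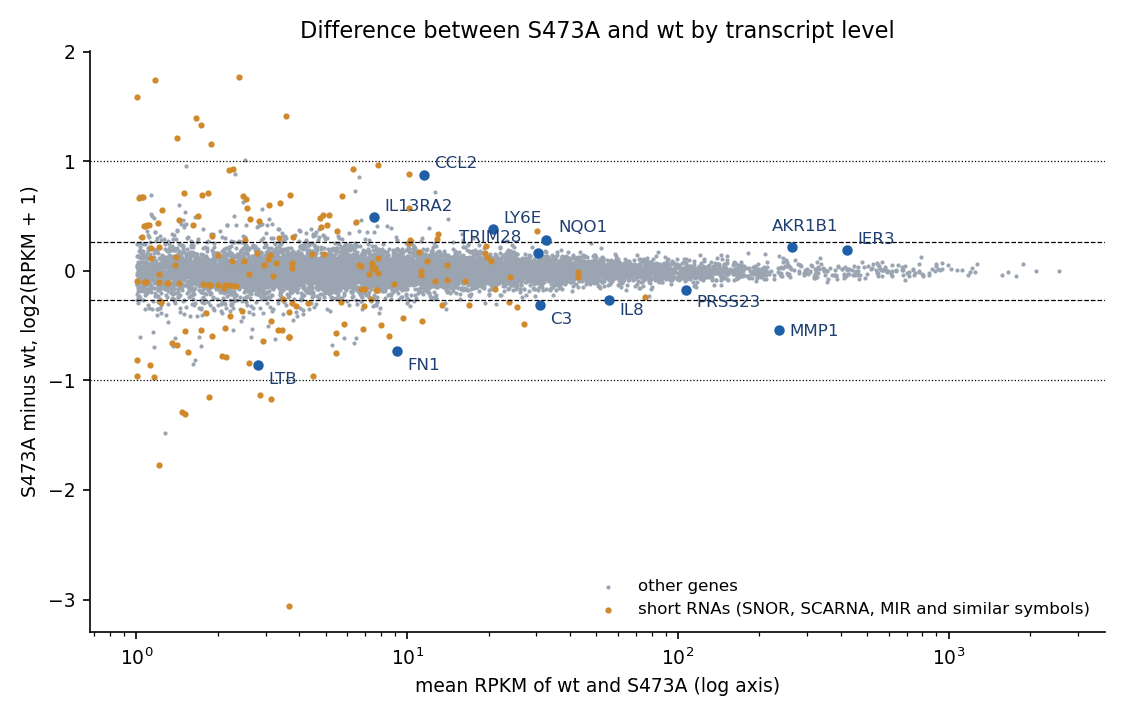
Difference S473A minus wt on log2(RPKM + 1) against mean RPKM on a log axis, 1 point per gene for 11788 genes, with short RNAs in orange and some named genes in blue; dashed lines mark 1.2-fold and dotted lines 2-fold. The points narrow around 0 as the level rises, and MMP1 is the only gene of at least 100 RPKM outside the dashed lines.

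The spread between the libraries narrowed with level, while its ratio to counting error grew. Among longer genes of 1 to 5 RPKM the differences had an SD of 0.139 over genes against 0.107 for counting error by itself, so the variances stood at a ratio of 1.7. The SD was 0.0903 against 0.0670 at 5 to 20 RPKM and 0.0638 against 0.0438 at 20 to 100 RPKM. In the 528 longer genes of at least 100 RPKM with a transcript length the variance was 5.31 times that of counting error (SD 0.0548 against 0.0238). The ratio to counting error was thus largest among the most abundant transcripts, while their SD was the smallest. Past 1.2-fold lay 99 genes upward and 108 downward at 1 to 5 RPKM, 30 and 29 at 5 to 20, 3 and 3 at 20 to 100, and 0 and 1 at 100 or more. In S473D minus wt, by the same tiers, the SD was 0.304, 0.344, 0.418 and 0.496, so there the spread widened with level, and 1.2-fold was passed upward by 20.1% and downward by 30.1% of 11741 genes. Transcript length did not sort the S473A differences. With genes ranked by transcript length into 5 groups of like size, their median stayed between -0.0026 and 0.0024. In S473D minus wt it ran from 0.25 in the shortest group to -0.26 in the longest. Summed RPKM was 330667 in wt and 393381 in S473D. The S473D levels given here are not corrected for this, and its part in the order of the 3 libraries was not tested. Both differences use the same wt library, so S473A and S473D on the same side of wt are not separate observations. By GC content the medians of S473A minus wt ran from -0.008 to 0.014.

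**Figure D2:**
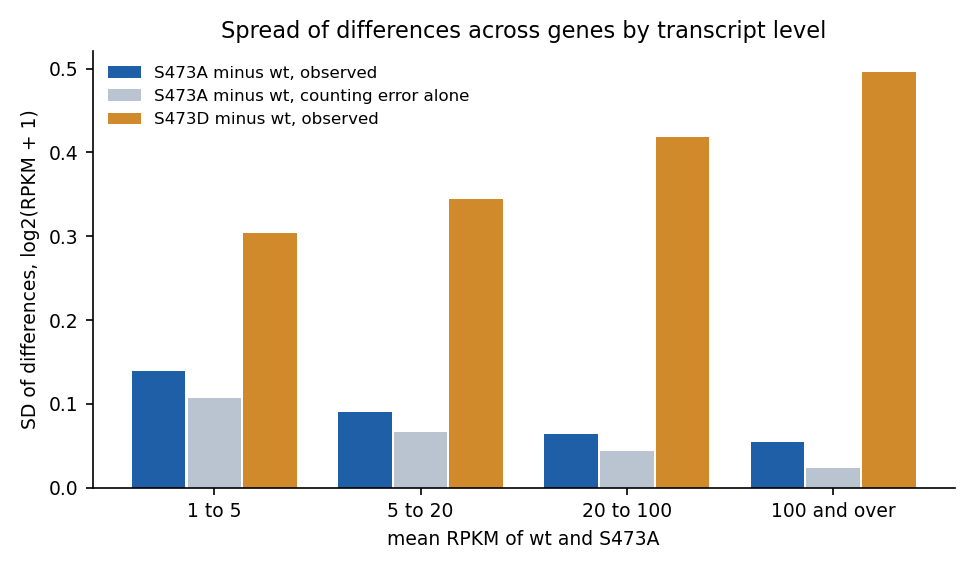
SD over genes of the differences on log2(RPKM + 1), by tier of mean RPKM, for S473A minus wt (blue, longer genes with a transcript length), for counting error alone at the estimated depths (grey) and for S473D minus wt (orange, longer genes). Blue falls from 0.139 to 0.0548 and stays above grey in each tier, while orange climbs from 0.304 to 0.496.

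Secreted matrix proteases and their regulators held the most abundant gene past 1.2-fold. MMP1, the interstitial collagenase, was at 279 RPKM in wt against 191 in S473A and 1541 in S473D. The S473A library was thus the lowest of the 3 and wt was 1.46-fold above it (interval 1.42 to 1.5). MMP3, the stromelysin whose gene neighbours MMP1, stood at 4.75 RPKM in wt against 3.48 in S473A and 11.8 in S473D, and wt was 1.36-fold above S473A (interval 1.13 to 1.65). SERPINB2, the plasminogen activator inhibitor PAI-2, was at 5.79, 4.34 and 27.8 RPKM in the same order, and wt was 1.34-fold above S473A (interval 1.13 to 1.57). These 3 genes had the same order of libraries, with S473A lowest and S473D highest. Of the 17 genes of the metalloproteinase, inhibitor and plasminogen list that were compared, 12 were lower in S473A (50.3% of all genes were) and 5 higher, with a median of -0.06 where all genes had -0.00049. Urokinase, PLAU, went the other way at 321 RPKM in wt against 348 in S473A and 212 in S473D.

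Extracellular matrix and adhesion genes were mostly slightly lower in S473A, and fibronectin stood far from the rest. FN1, which encodes the cell-binding glycoprotein fibronectin, was at 11.7 RPKM in wt against 6.67 in S473A and 7.43 in S473D. Both substituted forms were below wt, by 1.76-fold for wt over S473A (interval 1.66 to 1.87). Of 75 genes of the list, 53 were lower in S473A and 22 higher, with a median of -0.04. Lower were 11 of 14 collagen cross-linking genes, 8 of 11 collagens, 7 of 9 integrins and 5 of 7 laminins. TAGLN, an actin-binding protein of contractile cells, stood at 5.18 RPKM in wt against 4.01 in S473A (-0.30), and LAMA3, a laminin chain, at 5.24 and 4.25 (-0.25). LOXL1, a lysyl oxidase that cross-links elastin and collagen, went against the list at 6.11 RPKM in wt against 8.09 in S473A (0.35, ratio 1.32, interval 1.16 to 1.51). COL18A1, a basement membrane collagen, did so too, at 2.25 and 2.84 RPKM (0.24). Only FN1, TAGLN and LOXL1 of these 75 lay past 1.2-fold, where 1.65% of all genes did downward and 1.58% upward. Transcription factors of the mesenchymal state were close to wt, with SNAI2 at 31.5 and 34.5 RPKM and ZEB2 at 2.02 and 2.24. All 9 epithelial genes compared were lower in S473A (median -0.11), the furthest being CLDN4 at 2.25 and 1.73 RPKM, with a counting interval of 0.978 to 1.74 for wt over S473A, and KRT19 at 11.1 and 9.45 RPKM.

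Of the members of the gene lists, those furthest from wt in each direction, CCL2 and LTB, were cytokine genes. Chemokines are secreted proteins that draw leukocytes, and many of their genes are induced by NF-kB, a factor that inflammatory signals release into the nucleus. CCL2, which attracts monocytes, was at 7.84 RPKM in wt against 15.3 in S473A and 8.2 in S473D. S473A alone was high, 1.95-fold above wt (interval 1.60 to 2.38). Lymphotoxin beta, LTB, a membrane-bound cytokine of the TNF family, stood at 3.92 RPKM in wt against 1.72 in S473A and 0.588 in S473D. Wt was 2.29-fold above S473A (interval 1.58 to 3.35), and S473D was lower still. The neutrophil attractant CXCL1 was at 23.7, 19.1 and 16.5 RPKM, and wt was 1.24-fold above S473A (interval 1.11 to 1.39). IL8 (CXCL8), another neutrophil attractant, stood at 60.8, 50.3 and 86.2 RPKM, and wt was 1.21-fold above S473A (interval 1.14 to 1.28). CCL20 was at 1.94 RPKM in wt against 1.21 in S473A, with a counting interval of 0.979 to 2.65 that includes 1. All 4 CXC chemokines compared were lower in S473A, CXCL3 (-0.12) and CXCL2 (-0.02) by less than the other 2. CXCL3 and CXCL2 are named after their values were seen. Over the whole list of 21 genes 13 were lower and 8 higher, with a median of -0.07. Past 1.2-fold lay 4 downward and 1 upward, where 1.65% and 1.58% of all genes did. IL24 stood at 41.0 RPKM in wt against 44.8 in S473A, and IL32 at 5.91 and 6.44.

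**Figure D3:**
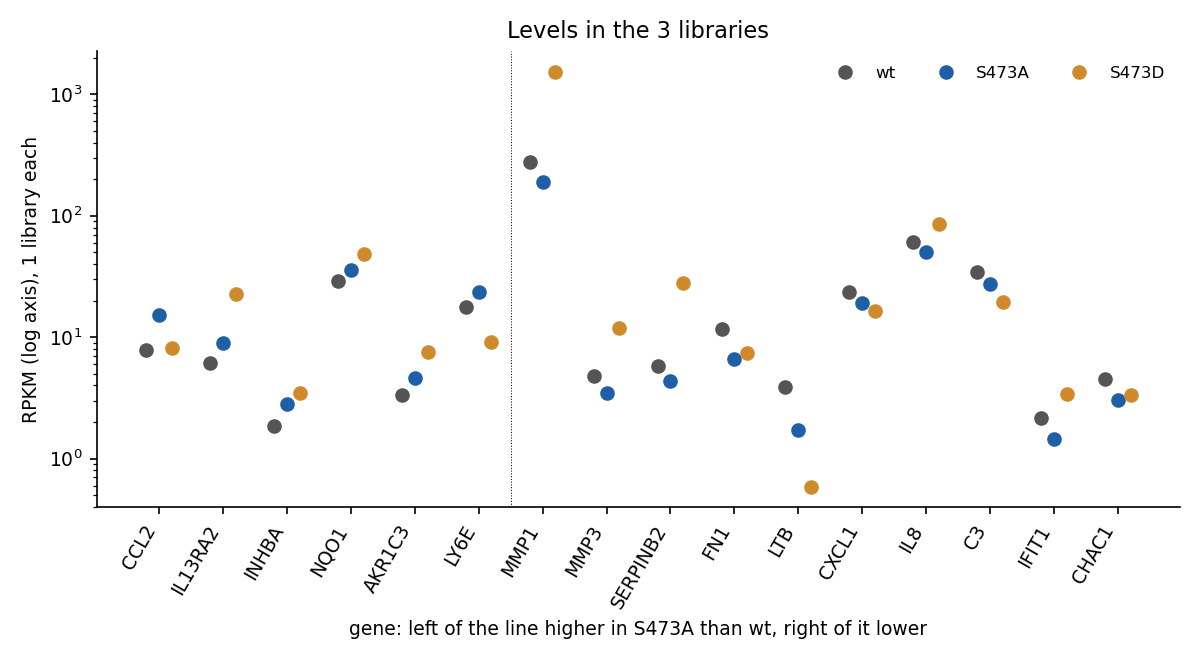
RPKM on a log axis in the wt, S473A and S473D libraries, 1 point per library, for 6 genes higher in S473A than wt (left of the dotted line) and 10 lower. MMP1, MMP3 and SERPINB2 are lowest in S473A and highest in S473D, LTB steps down from wt through S473A to S473D, and CCL2 is high in S473A alone.

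The promoters of these chemokine genes are shown because 3 of the 4 lower CXC genes share 1 NF-kB-type element at nearly the same distance from the start. The printed runs of CXCL1, CXCL2 and CXCL3 are alike along most of their length, so their matches are not 3 separate observations. The motif searched was GGANNTTCC, read on both strands within 250 bases before the start in RefSeq's promoter table for GRCh38.p14. It occurred in 3.88% of 27305 promoters of the table, in 361 of 9373 compared genes with a promoter there (3.85%), in 8 of 15 chemokine and cytokine genes and in 6 of 21 genes of the NF-kB list. Each run below gives the 150 bases before the start, with the match in capitals, which in LTB reads on the opposite strand. The match begins 78 bases before the start in CXCL1 and CXCL3, 77 in CXCL2, 91 in IL8 and 86 in LTB. Only 15 of the 21 cytokine genes compared have a promoter in that table, and CCL2, which was higher in S473A, has none there. The promoters printed below are all from genes lower in S473A. IL32, which was higher, also has the motif, as do IL6 and CSF2, and these promoters are not printed. A match is a description of letters and not of binding.
CXCL1 (chr4:73869243-73869392, plus strand): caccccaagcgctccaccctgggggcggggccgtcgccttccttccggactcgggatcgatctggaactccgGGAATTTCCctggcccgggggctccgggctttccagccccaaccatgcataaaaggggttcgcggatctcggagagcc
CXCL3 (chr4:74038690-74038839, minus strand): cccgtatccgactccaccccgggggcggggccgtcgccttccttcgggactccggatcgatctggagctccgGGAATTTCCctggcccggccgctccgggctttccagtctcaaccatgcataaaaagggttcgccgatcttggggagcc
CXCL2 (chr4:74099196-74099345, minus strand): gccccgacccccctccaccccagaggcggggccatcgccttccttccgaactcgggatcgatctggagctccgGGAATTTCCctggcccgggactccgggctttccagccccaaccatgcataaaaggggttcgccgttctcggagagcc
IL8 (chr4:73740419-73740568, plus strand): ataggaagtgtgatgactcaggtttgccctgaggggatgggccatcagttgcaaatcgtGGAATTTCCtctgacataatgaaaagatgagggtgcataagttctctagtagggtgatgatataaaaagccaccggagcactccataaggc
LTB (chr6:31582426-31582575, minus strand): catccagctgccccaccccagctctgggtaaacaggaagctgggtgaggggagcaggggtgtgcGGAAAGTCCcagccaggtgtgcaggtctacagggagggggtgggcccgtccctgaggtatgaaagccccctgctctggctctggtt

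Genes of NF-kB itself and its feedback loop were mostly slightly lower in S473A. Of 24 compared, 18 were lower and 6 higher, with a median of -0.05, and 5 of the 6 subunit genes were lower. Past 1.2-fold lay only the complement genes CFB and C3, which are NF-kB targets. Both went downward, where 1.65% of all genes did. CFB, complement factor B, was at 2.83 RPKM in wt against 2.01 in S473A and 1.81 in S473D. C3, the central complement protein, stood at 34.2, 27.4 and 19.5 RPKM, and wt was 1.25-fold above S473A (interval 1.2 to 1.3). Both step down from wt through S473A to S473D, with the S473D levels not corrected for that library's trend with transcript length. BIRC2, an inhibitor of apoptosis in TNF receptor complexes, was at 44.8 RPKM in wt against 40.4 in S473A. TNIP2, which binds the feedback protein A20, stood at 20.2 and 22.3 and was the highest member (0.13).

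The interferon-stimulated genes of the list, which encode antiviral effectors induced by interferons, leaned the same way. Of 30 compared, 21 were lower and 9 higher (median -0.07). The effectors held the 3 that passed 1.2-fold, all downward, where 1.65% of all genes did. All 3 averaged 1 to 5 RPKM, where 108 of 3339 longer genes passed it downward and counting error was largest. IFIT1, which binds foreign RNA ends, was at 2.16 RPKM in wt against 1.44 in S473A and 3.38 in S473D. Wt was 1.5-fold above S473A (interval 1.24 to 1.82), and S473A was the lowest library. IFIT2, its relative, stood at 3.46, 2.43 and 3.8 RPKM, and OASL, an OAS-like antiviral protein, at 1.4, 0.882 and 1.93. The same order, S473A lowest and S473D highest, held for all 3. IRF1, a transcription factor of the response, was the highest member at 4.60 RPKM in wt against 5.03 in S473A. Well-known members such as MX1, RSAD2 and IFI27, named after their values were seen, were under 0.2 RPKM in wt and S473A. A motif of the interferon response type, TTTC, any 2 bases and TTTC again, on either strand, occurred in 3.07% of the table's promoters, 2.37% of those of compared genes and 12 of 24 promoters of the list. The IFIT1 promoter is shown as an example from the list, with 2 copies in capitals that begin 116 and 103 bases before the start.
IFIT1 (chr10:89392473-89392622, plus strand): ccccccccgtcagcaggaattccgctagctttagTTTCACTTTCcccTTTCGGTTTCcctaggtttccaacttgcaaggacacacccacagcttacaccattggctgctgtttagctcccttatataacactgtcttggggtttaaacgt

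Hypoxia and stress-response genes were also slightly lower in S473A. Of 38 genes of the hypoxia list 27 were lower and 11 higher (median -0.08), including 9 of 10 glycolytic targets. EPAS1, which encodes the oxygen-regulated factor HIF-2 alpha, was at 8.13 RPKM in wt against 6.52 in S473A and 5.59 in S473D. Wt was 1.25-fold above S473A (interval 1.14 to 1.36), and EPAS1 was the only member past 1.2-fold. DDIT4, an mTORC1 inhibitor induced by hypoxia and by amino acid stress, stood at 84.9, 72.1 and 50.4 RPKM (-0.23), again with S473D lowest. Glycolytic enzymes as a list of their own were nearer to balance, with 8 of 18 higher and a median of -0.01.

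ATF4 is the transcription factor that cells translate when amino acids run short or the endoplasmic reticulum is stressed. In the list of ATF4 targets and the unfolded protein response, 45 of 60 genes were lower in S473A and 15 higher (median -0.05), among them 12 of 14 stress targets and 10 of 12 tRNA synthetases. CHAC1, a glutathione-degrading enzyme and an ATF4 target, was at 4.55 RPKM in wt against 3.06 in S473A and 3.36 in S473D. Wt was 1.49-fold above S473A (interval 1.21 to 1.83), and both substituted forms were below wt. CARS, the cysteine tRNA synthetase, stood at 32.2, 27.2 and 23.3 RPKM (-0.23). ALDH18A1, an enzyme of proline synthesis, was the highest member at 40.3 RPKM in wt against 43.0 in S473A. The ATF4 type motif TGATGNAA occurred in 3.19% of the table's promoters, 1.31% of those of compared genes and 6 of 51 of the list. CHAC1 is shown as the only member past 1.2-fold, with 250 bases before the start and the match, on the opposite strand, in capitals from 209 bases before the start.
CHAC1 (chr15:40953221-40953470, plus strand): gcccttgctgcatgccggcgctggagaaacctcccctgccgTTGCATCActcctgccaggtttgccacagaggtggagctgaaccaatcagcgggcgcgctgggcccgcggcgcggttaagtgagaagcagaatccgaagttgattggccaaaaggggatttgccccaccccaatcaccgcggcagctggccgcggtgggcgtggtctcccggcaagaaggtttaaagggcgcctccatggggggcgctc

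Lysosomal genes, which encode the acid hydrolases and membrane proteins of the degradative compartment, were lower in 17 of 19 cases, with a median of only -0.04 and none past 1.2-fold. Autophagy genes were split 9 to 9. PINK1, the kinase that marks damaged mitochondria, was the highest autophagy member at 47.4 RPKM in wt against 51.9 in S473A, and GABARAPL1, an autophagosome protein, the lowest at 8.45 and 7.03.

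Replication-dependent histone genes are transcribed in S phase, and most of their transcripts end in a stem-loop rather than a poly(A) tail. Which of these ends the counted transcripts had was not tested. Of 68 such genes listed, 18 met the minimum, and 15 of these 18 entries were higher in S473A (49.7% of all genes were) with a median of 0.13. The 18 summed to 320 RPKM in wt and 353 in S473A. Most of this came from HIST1H2BK, named after its values were seen, at 234 and 254 RPKM. HIST2H2AA3 and HIST2H2AA4 have identical values, as do HIST2H4A and HIST2H4B, so the 18 entries are not 18 separate measurements. HIST1H4H was at 5.49 RPKM in wt against 7.98 in S473A and 9.24 in S473D, and HIST1H2AC at 6.51, 8.97 and 9.87. HIST1H2BC (1.61 and 0.969 RPKM in wt and S473A) and HIST2H2BE (1.32 and 0.831) went the other way. HIST2H3D was at 1.56 and 2.23 RPKM, with a counting interval of 0.767 to 2.93 for S473A over wt. Of 46 DNA replication genes 26 were higher (median 0.01), none past 1.2-fold, with CDC6, the helicase loader, at 30.1 and 33.1 RPKM and GINS1 at 12.1 and 10.5. Replication-independent histone variants were split 5 to 5, and of 11 factors that process histone transcripts 4 were higher.

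NRF2 is the transcription factor that switches on detoxifying enzymes when electrophiles or oxidants build up. Of 27 genes of its list 17 were higher in S473A and 10 lower, with a median of 0.01. NQO1, a quinone reductase, stood at 29.3 RPKM in wt against 35.7 in S473A and 48.5 in S473D, 1.22-fold above wt in S473A (interval 1.15 to 1.29). AKR1C3, an aldo-keto reductase of steroids and prostaglandins from a family of similar sequence, was at 3.35, 4.64 and 7.55 RPKM, and AKR1B1, aldose reductase, at 245, 285 and 269. Both substituted forms were above wt in all 3, each set against the same wt library. HMOX1, heme oxygenase, was lower at 4.14 RPKM in wt against 3.67 in S473A, with a counting interval of 0.919 to 1.38 for wt over S473A. In the heat shock and chaperone list 16 of 22 genes were higher (median 0.02). HSPA1A stood at 7.40 RPKM in wt against 9.98 in S473A and its near-identical copy HSPA1B at 115 and 127, values that depend on how reads were divided between them.

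Of 32 growth factor receptors and ligands 18 were higher and 14 lower (median 0.01), with IL13RA2 upward and IL7R downward past 1.2-fold. IL13RA2, a decoy receptor for interleukin-13, was at 6.10 RPKM in wt against 8.97 in S473A and 22.7 in S473D, so that both substituted forms were above wt, S473A by 1.47-fold (interval 1.24 to 1.75). INHBA, the activin A subunit of the TGF-beta family, stood at 1.85, 2.81 and 3.47 RPKM, 1.51-fold above wt in S473A (interval 1.31 to 1.75). The rest of the TGF-beta pathway stayed nearer to wt, with 14 of 33 genes higher, a median of -0.03 and no other member past 1.2-fold. IL7R, the interleukin-7 receptor alpha chain, was at 8.94, 6.88 and 6.10 RPKM, and wt was 1.30-fold above S473A (interval 1.19 to 1.42). Outside the lists, LY6E, a membrane-anchored protein of the Ly6 family, stood at 17.8, 23.5 and 9.09 RPKM, with the substituted forms on opposite sides of wt.

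**Figure D4:**
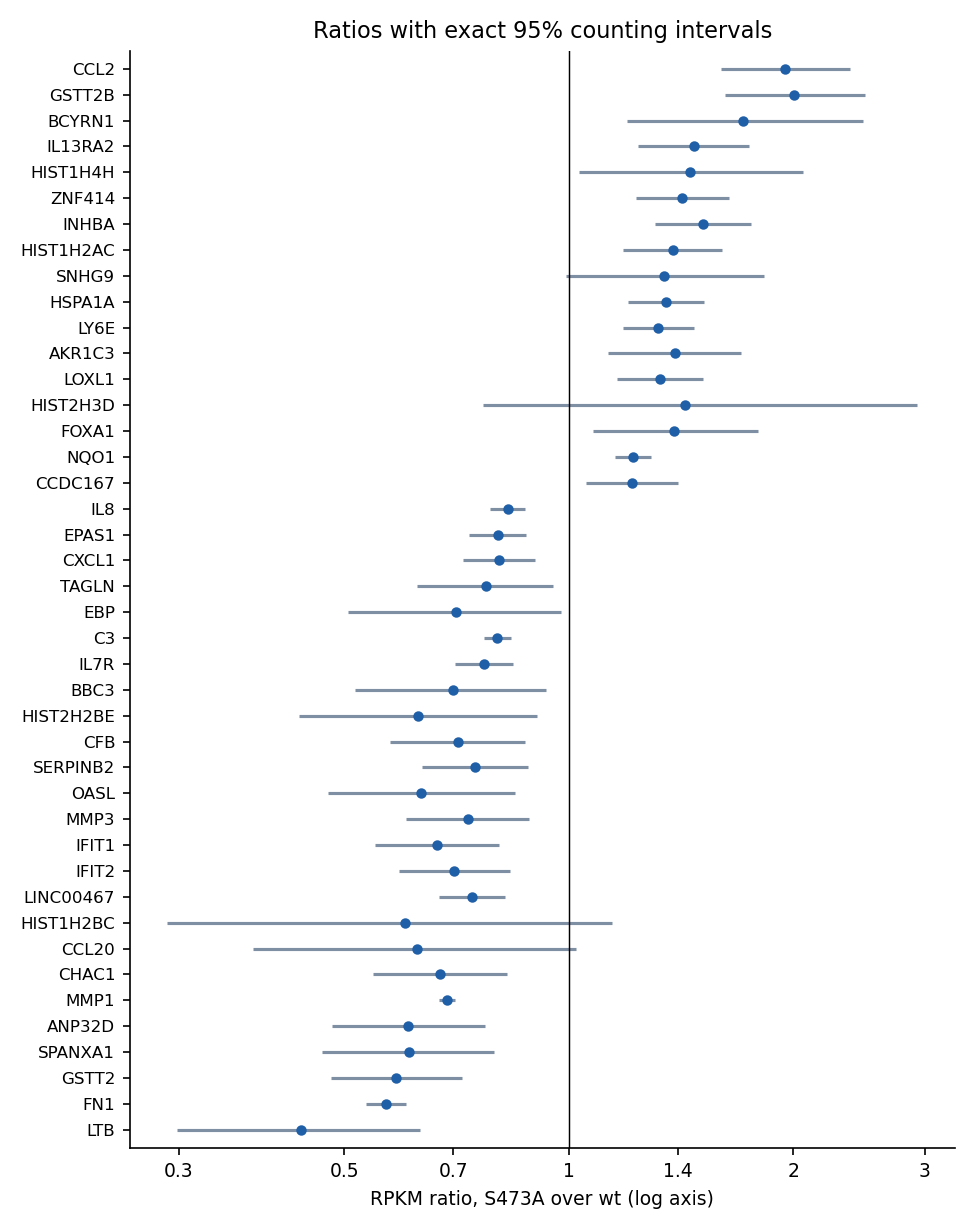
Ratio of RPKM, S473A over wt, on a log axis with exact 95% counting intervals, for named longer genes past 1.2-fold that have a transcript length. Readthrough symbols and MTRNR2L9 are left out, which leaves 42 genes, 17 higher and 25 lower. The interval includes 1 for 4 of them, and MMP1 has the narrowest one of the genes lower in S473A.

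Among longer genes of at least 100 RPKM, MMP1 was the only gene past 1.2-fold, and the other genes furthest from wt had smaller differences. IER3, an early response gene that restrains cell death, was at 394 RPKM in wt against 449 in S473A and 369 in S473D (ratio of S473A to wt 1.14, interval 1.11 to 1.17). The mitochondrial ribosomal gene MRPS24 stood at 172, 192 and 282 RPKM and CUTA at 137, 152 and 186. On the lower side, PRSS23, a secreted serine protease, was at 114, 101 and 100 RPKM, and wt was 1.13-fold above S473A (interval 1.1 to 1.16). IGFBP7, which binds insulin-like growth factors, stood at 122, 111 and 135 RPKM, PHLDA1 at 120, 109 and 87.6, and the linker histone gene H1F0 at 150, 138 and 96.7. At 20 to 100 RPKM the highest besides LY6E and NQO1 were CCDC167 (0.27), the RNA polymerase II subunit gene POLR2J (0.26) and the mitochondrial ribosomal gene MRPL41 (0.25). FBXO22-AS1 (0.23) followed, an antisense gene whose reads cannot be told apart from those of its partner without strand. The lowest besides C3, CXCL1 and IL8 were the centrosomal gene CETN3 (-0.24), CARS and DDIT4. At 5 to 20 RPKM several of the furthest genes belong to near-identical families in which reads can be shared, and their values are uncertain: GSTT2B (0.86), GSTT2 (-0.66), BCYRN1 (0.72), GPR89C (-0.67), SPANXA1 (-0.61) and ANP32D (-0.61).

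The silencing machinery that KAP1 works with stayed within 1.2-fold of wt. Of 36 genes of KAP1 and its corepressor partners 24 were higher and 12 lower, with a median of 0.01 and none past 1.2-fold. SETDB1, the histone H3 lysine 9 methyltransferase that KAP1 recruits, was at 8.68 RPKM in wt against 9.26 in S473A. The HP1 genes CBX5, CBX1 and CBX3 stood at 12.3, 108 and 137 RPKM in wt and at 12.4, 105 and 144 in S473A. In NuRD, CHD3 was at 22.6 and 24.4 RPKM, CHD4 at 38.8 and 38.4 and HDAC1 at 48.9 and 46.2. The DNA methyltransferases DNMT3A (3.27 and 3.70 RPKM) and DNMT3B (3.84 and 3.40) were, after TRIM28, the members furthest from wt, in opposite directions. The kinases and phosphatases of KAP1's serines also held no member past 1.2-fold in 22, with CHEK2 at 5.55 and 5.06 RPKM, ATM at 6.26 and 5.73 and the phosphatase PPM1D at 4.11 and 4.71. Genes with a ZNF symbol, many of which encode the zinc finger proteins that bring KAP1 to DNA and many of which KAP1 binds, were balanced: 174 of 356 were higher and 182 lower, with a median of -0.0047. Past 1.2-fold were 5 of them (1.4%), beside 2.35% of all longer genes and 4.24% of the 2923 longer genes, ZNF genes included, between the lower and upper quartile of ZNF levels (1.94 and 6.15 RPKM): ZNF414 (5.33 RPKM in wt against 7.55 in S473A), ZNF141 (2.33 and 3.48), ZNF595 (1.17 and 1.65) and ZNF524 (2.76 and 3.64) upward and ZNF587B (1.72 and 1.27) downward, 4 of which are named after their values were seen. Among imprinted genes, some of which KAP1 keeps silent on 1 parental copy, 9 of 13 were higher with a median of 0.01, the highest being CDKN1C at 1.67 and 2.20 RPKM with a counting interval of 0.990 to 1.76 for S473A over wt.

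In the list of mitochondrial fusion and fission 7 of 15 genes were higher and 8 lower, none past 1.2-fold. The furthest were the fission gene MTFP1 (22.6 RPKM in wt against 25.8 in S473A and 40.3 in S473D), the outer membrane fusion gene MFN1 (11.3, 9.97 and 10.3), GDAP1 (3.81, 3.31 and 4.43) and OMA1, the protease that cleaves OPA1 (7.21, 7.94 and 9.34). The 76 nuclear genes for oxidative phosphorylation were divided into 36 higher and 40 lower, the furthest being NDUFB7 of complex I (48.0 and 55.7 RPKM in wt and S473A) and SDHB of complex II (43.3 and 38.1). Complex III genes were higher in 7 of 9 cases and complex IV genes lower in 8 of 10, with medians of 0.04 and -0.03. The 79 cytosolic ribosomal protein genes, whose transcripts are among the most abundant, kept between -0.07 and 0.09, with 43 higher and 36 lower. Genes of mitosis (24 of 42 higher) and of DNA damage signalling and repair (22 of 39 higher) had medians of 0.01 and held none past 1.2-fold. Of 24 p53 targets 11 were higher. The only member of that list past 1.2-fold was BBC3, which encodes the cell death activator PUMA, at 2.26 RPKM in wt against 1.58 in S473A. Of 25 cholesterol synthesis genes 16 were higher, and the sterol isomerase gene EBP, at 1.91 and 1.35 RPKM, was the only member past 1.2-fold. The small nucleolar RNA host gene SNHG9 was at 10.3 and 13.8 RPKM, with a counting interval of 0.990 to 1.83 for S473A over wt.

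**Figure D5:**
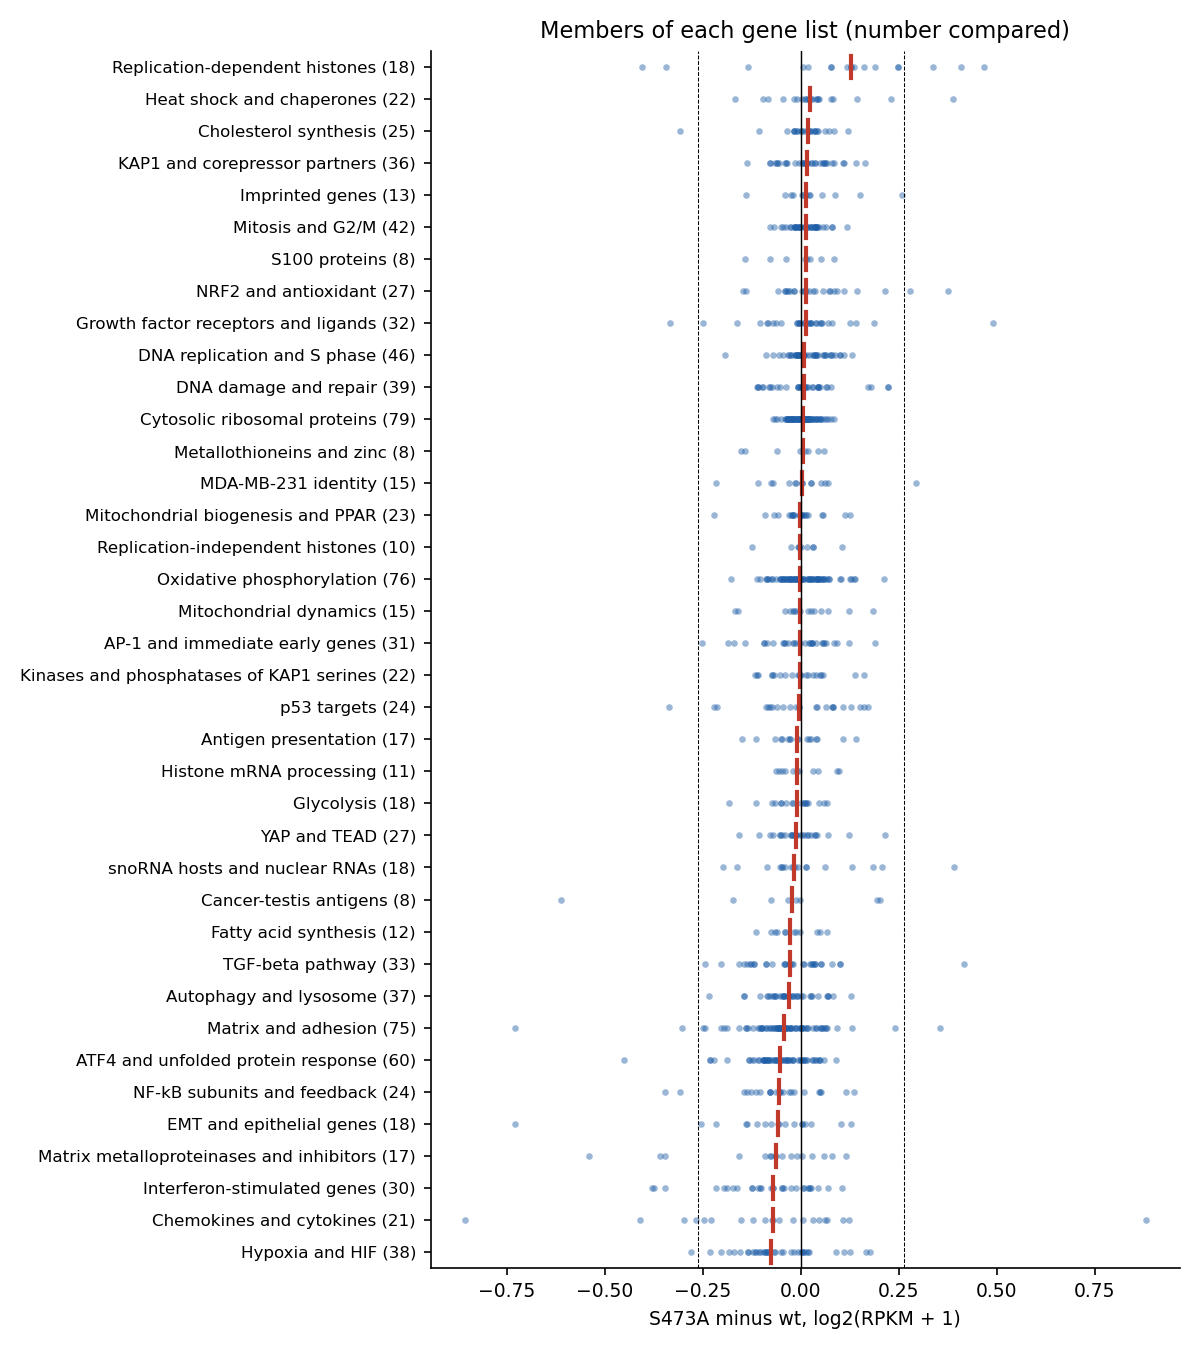
Differences S473A minus wt on log2(RPKM + 1) for the compared members of 38 gene lists, 1 blue point per gene, with the list's median in red, the number compared in brackets and dashed lines at 1.2-fold. Medians lie between -0.08 (hypoxia) and 0.13 (replication-dependent histones), within the dashed lines, and CCL2, LTB and FN1 lie furthest out.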

How the data were processed

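Total RNA was extracted from MDA-MB-231 cells with TRIzol and sequenced on Illumina libraries, per the labels' protocols. Bowtie, Partek and the build hg19 are named in the submitters' processing notes. Versions, gene annotation and counting rule were not given in the sources used here. Deposited values are log2 of RPKM with 0.1 added, as the lowest value of -3.32 in each column shows, so RPKM was recovered as 2 to the power of the value minus 0.1. Of 19076 entries 27 with date-turned or repeated symbols were left out. Genes averaging 1 RPKM or more in wt and S473A were compared by the difference of log2(RPKM + 1), which understates differences of low genes. An abundant transcript that takes more of a library lowers the RPKM of the rest.

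The table holds no counts. Depths were estimated from the steps between low values, of which 45.2% to 46.6% came out as whole reads within 2%. The value of 1 read in S473A was 0.875 of that in wt, taken from 2683 low genes. Reads per gene used GENCODE 29 transcript lengths (GRCh38, for length and GC content only), found for 11498 genes (97.5%), and otherwise the median of 3174.5 bases. Exact Clopper-Pearson 95% intervals followed from them, and the computation was tested on simulated data. Python 3.11.15 with numpy 2.4.6, pandas 2.3.3, scipy 1.17.1 and statsmodels 0.14.6 was used.

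The members and the 40 gene lists were chosen with earlier results of these data known. Named genes were taken from TRIM28, genes past 2-fold, the 6 highest and 6 lowest longer genes per tier of mean RPKM from 5 upward, the 3 highest and 3 lowest of each list with 5 or more compared, list members past 1.2-fold, and any member of the KAP1 and mitochondrial dynamics lists. Not all genes that this rule covers are printed, and some are not reported here. With 1 library per group no test was possible. Pseudocounts, filters, scaling, short RNAs and smooth trends on transcript properties (lowess fraction 0.2 with 2 rounds) were varied.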

Additional observations from a re-analysis of the deposited data

How the results depend on the processing

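No paired analysis was possible because each group has 1 library, and leaving out a replicate was not possible either. The 17 genes at least 2-fold apart became 50 with a pseudocount of 0.1, 30 with 0.5, 31 with no filter, 2 without short RNAs and 0 among the 8333 genes averaging 5 RPKM or more. The 186 genes at least 1.2-fold higher in S473A became 314 with a pseudocount of 0.1, 344 with no filter and 46 at an average of 5 RPKM or more, and the 194 lower ones became 351, 377 and 48. Centring, trimmed mean scaling (a shift of -0.0044), a filter over all 3 libraries and removal of length and GC trends left these 3 counts within 1.5 times. TRIM28 stayed between 0.15 and 0.17 in all 9 alternatives. Among the genes covered by the naming rule, no difference that was past 1.2-fold changed direction. Pseudocounts and filters cannot change a direction, and the shifts from centring and scaling were far below 1.2-fold, so this lends little support. The histone list's median was 0.22 and the ATF4 list's -0.04 at that average. Depth limits genes of 1 to 5 RPKM most, where counting error alone gives an SD of 0.107.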

Other observations

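The small differences were not spread evenly over chromosomes. By RefSeq's gene placements in GRCh38, used for the chromosome alone, 66.5% of 555 compared genes on chromosome 12 were lower in S473A, 63.1% of 604 on chromosome 11, 62.7% of 150 on chromosome 18 and 61.3% of 297 on chromosome 20. On chromosome 7 the share was 37.8% of 498, on chromosome 6 39.4% of 559, on chromosome 22 39.6% of 245, on chromosome 15 40.2% of 356 and on chromosome 10 40.5% of 427, where all genes compared gave 50.3%. The chromosome shares count only longer genes whose symbol has a placement there, while the 50.3% also includes short RNA symbols and genes without a placement. The medians were small, from -0.03 on chromosome 18 to 0.02 on chromosome 22. These chromosomes were picked after their values were seen.

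Genes with short RNA symbols stood apart by their spread. Their differences had an SD of 0.623 against 0.103 for longer genes, and 14 of the 15 at least 2-fold apart rest on at most 16 estimated reads in either library. SNORD74, at 4.31 RPKM in wt and 1.41 in S473A, has no matched transcript length, so its number of reads is not known. MIR4461 stood at 7.33 RPKM in wt, was listed at 0 in S473A and was at 9 in S473D. SNORD4A stood at 0.538 RPKM in wt against 4.24 in S473A, with a counting interval of 1.09 to 345 for the ratio. MIR564 and MIR621 were listed at 0 in wt and were at 2 and 2.34 RPKM in S473A.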
